A study of Mus musculus with 2 samples.

Results

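Synapses release neurotransmitter from small vesicles and, in sympathetic and neuroendocrine cells, peptides and amines from dense-core granules, and the expression of 37 genes of both systems was compared between Gata6cKO and control ureters of mouse embryos at E14.5. The members were the probes with a gene name from a list of 37 synaptic vesicle and synapse genes, which gave 62 of the 39429 probes on the array and 37 of its 29875 gene symbols. They fell into 17 genes of the vesicle itself, 10 of the fusion machinery and active zone, 6 of synaptic adhesion and the postsynaptic scaffold, and 4 of the dense-core granule. For 34 members at least 1 probe was bright enough to be tested, among 19801 genes tested in all, and Sv2b, Unc13a and Rims2 were not tested.

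Total RNA of 4 dissected ureter samples of the NMRI strain was hybridised to 2 two-colour microarrays, each with 1 Gata6cKO RNA and 1 control RNA. The Gata6cKO genotype was Tbx18(cre/+);Gata6(fl/fl), with both copies of the transcription factor gene Gata6 floxed and cre in 1 copy of Tbx18, so that recombination follows the cells in which Tbx18 is or was active, which in the ureter are mesenchymal. The control genotype was Gata6(fl/?), with at least 1 floxed copy, the other of unstated type, and no cre named. Replicate 1 held male RNAs with Gata6cKO in Cy5, and replicate 2 held female RNAs with the dyes exchanged, so that sex, dye and replicate cannot be told apart between the arrays. Whether 1 embryo or a pool gave each RNA is not stated, so the p-values speak only for these samples. With 2 arrays, most of the spread behind each SE and p-value was taken from all genes together, not from the 2 ratios of the gene itself. The loss of Gata6 cannot be told apart from the presence of cre, or from the change to the 1 copy of Tbx18 that carries it.

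In the 4 channels 67.2% to 68.5% of gene spots exceeded background, and no spot of a member was saturated. The Gata6 probe was higher in the RNAs labelled Gata6cKO, with a log2 ratio of 0.85 in the male and 0.46 in the female pair (mean 0.65 ± 0.12, moderated SE, n = 2 arrays; limma adjusted p = 0.00612). Its place relative to the floxed part was not settled, so it checks nothing about the labels, and every direction given here rests on them. The dissected tissue carried RNA of several cell types, with 12 of 12 urothelial and 7 of 7 smooth muscle markers bright enough to test. The urinary tract is innervated by autonomic neurons, and in a bulk sample fewer cells of a type and less RNA per cell cannot be told apart.

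A vesicle is filled by transporters, tethered at the active zone by scaffolds such as Rims, bassoon and piccolo, primed by Unc13 and Cadps proteins, and fused by the SNARE proteins synaptobrevin (Vamp), syntaxin and Snap25 when the calcium sensor synaptotagmin is triggered. Neurexins on the presynaptic side bind neuroligins on the postsynaptic side. Granins such as chromogranin A and B and secretogranin 2 and 3 are the acidic matrix proteins of dense-core granules in chromaffin cells, sympathetic neurons and endocrine cells. Synaptic genes are not all restricted to neurons, since several of these proteins have a role in the secretion of other cell types.

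Of the 34 members tested, 9 were higher and 2 lower in Gata6cKO at an adjusted p under 0.05 in the limma fit over all genes, and 23 did not pass. Over all 19801 genes tested, 2.2% were higher and 2.35% lower, 4.55% in either direction. The members that rose were Cplx1, Cadps, Scg2, Scg3, Chgb, Syt4, Syn1, Syn2 and Nrxn3, and those that fell were Syt1 and Snap91. The log2 ratio of Gata6cKO over control had a median of 0.11 over the 34 members, with 0.12 in the male and 0.07 in the female pair, beside a median of -0.00188 over all genes. Of the 34, 19 were above 0 on both arrays, 6 below 0 on both and 9 had opposite signs. Both Gata6cKO signals lay above both control signals for 16 of the 34 members, beside 15.9% of all genes. They lay below both for 5 of the 34, beside 17.6% of all genes, so the share of members below was not above that of all genes.

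**Figure D1:**
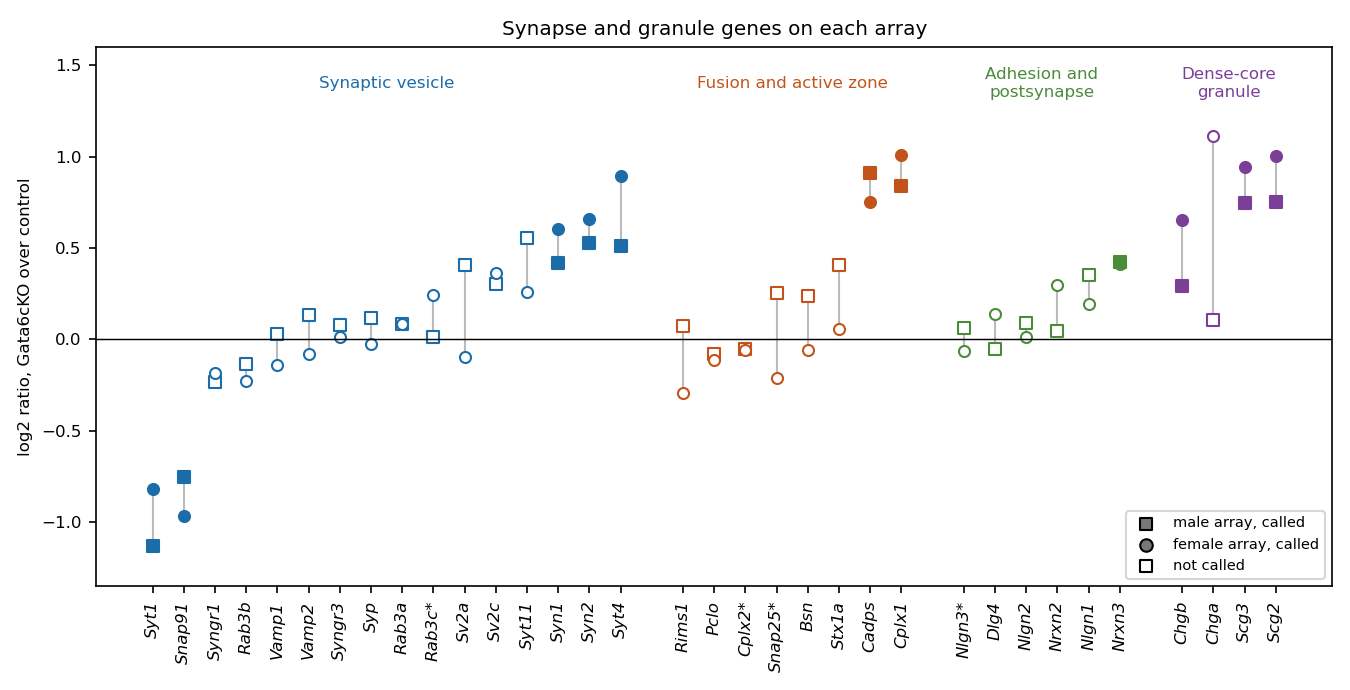
Log2 ratio of Gata6cKO over control for each of the 34 tested members, by role; squares are the male array (replicate 1), circles the female array (replicate 2), filled symbols are members that passed the limma test and an asterisk marks a gene whose probe holds repeat sequence. Scg2, Scg3 and Chgb are filled and above 0 on both arrays, Chga has its points at 0.11 and 1.12, and Syt1 and Snap91 stand alone below -0.7.

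Dense-core granule genes had the highest median of the 4 roles, 0.73 on the log2 scale (0.52 in the male and 0.97 in the female pair), with 3 of 4 members higher and 1 not passing. Scg2, the precursor of the peptide secretoneurin (probe at chr1:79431323-79431382, mm9), had a normalised signal of 317 in Gata6cKO and 188 in control on the male array, and of 280.1 and 139.6 on the female array. Both Gata6cKO signals were above both controls, and the log2 ratio was 0.88 ± 0.12 (1.84-fold; limma adjusted p = 0.000478; n = 2 arrays). Over the alternatives in processing this ratio ran from 0.88 to 1.38, the highest with Agilent's processed signals. Scg3, a granin that binds other granule proteins to the granule membrane (chr9:75491320-75491379), had signals of 839 against 500.0 in the male pair and 864 against 449.8 in the female pair. Its groups did not overlap either, at a log2 ratio of 0.84 ± 0.11 (1.80-fold; limma adjusted p = 0.000539).

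Chgb, chromogranin B (chr2:132620703-132620762), had signals of 7682 against 6265 on the male array and 6208 against 3944 on the female array. It was higher in Gata6cKO on each array, but the female Gata6cKO RNA lay below the male control RNA, so the groups overlapped. The log2 ratio was 0.47 ± 0.12 (limma adjusted p = 0.0408), with 0.29 in the male and 0.65 in the female pair, and the call was lost with separate channels, without the filter for dim probes and by median centring (adjusted p = 0.481, 0.155 and 1). Chga, chromogranin A, gave 1616 against 1502 on the male array and 1745 against 806 on the female array. Its control RNA of the female array stood apart from the other 3 RNAs, its log2 ratio was 0.11 in the male and 1.12 in the female pair, and the mean of 0.61 ± 0.18 did not pass (limma adjusted p = 0.0821). Without background correction, with a normexp offset of 16, with an intensity trend in the prior, with the deposited series values or with repeat probes left out it passed, at adjusted p = 0.0186, 0.0144, 0.0229, 0.00328 and 0.0268.

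Fusion and active zone genes split between 2 members that rose and 6 that did not pass. Their median was 0.06, but 0.25 in the male pair and -0.06 in the female pair, so its sign rests on the male array. Cplx1, complexin 1, which clamps and then assists the SNARE complex (chr5:108947895-108947954), had signals of 245 against 137 in the male pair and 246 against 122 in the female pair. Gata6cKO was higher in both with no overlap, at a log2 ratio of 0.92 ± 0.11 (1.90-fold; limma adjusted p = 0.000269). Over the alternatives in processing this ratio ran from 0.92 to 1.64, the highest with Agilent's processed signals. The control signals of Cplx1 were not far above the floor of the arrays, 106 to 111 for the dimmest probes well above background. Cadps, which primes dense-core granules for fusion (chr14:13205079-13205138), had signals of 1161 against 618 and 1126 against 669. Both arrays were close, at a log2 ratio of 0.91 (male) and 0.75 (female), with a mean of 0.83 ± 0.11 (1.78-fold; limma adjusted p = 0.00057).

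The other tested members of the fusion and active zone group did not pass, and their log2 ratios ran from -0.11 for Rims1, a scaffold that ties vesicles to calcium channels, to 0.23 for Stx1a, the plasma membrane syntaxin. Stx1a had 0.41 in the male and 0.06 in the female pair. Bsn, the giant scaffold bassoon, had 0.24 and -0.06. Snap25, the plasma membrane partner of syntaxin, had 0.26 and -0.21, at a probe that holds repeat sequence. Unc13a, the priming factor, and Rims2 had no probe with 3 of 4 spots well above background on both arrays in either genotype.

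Vesicle genes moved in both directions. Of 16 tested, 3 rose, 2 fell and 11 did not pass. The median was 0.07, with 0.10 in the male pair and -0.00718 in the female pair, so its sign also rests on the male array. Syt4, a synaptotagmin of granules and dendrites that is induced by activity, had signals of 319.8 against 225 in the male pair and 319 against 172 in the female pair. The Gata6cKO RNAs were nearly equal and both above the controls, at a log2 ratio of 0.70 ± 0.12 (1.63-fold; limma adjusted p = 0.00363). The call was lost without the filter for dim probes and by median centring (adjusted p = 0.0562 and 0.205). The synapsins, which tether vesicles to one another, were higher as a pair of genes. Syn1 (chrX:20437641-20437700) had signals of 454 against 339.9 and 456 against 300.2, a log2 ratio of 0.51 ± 0.11 (1.42-fold; limma adjusted p = 0.0176), a call lost without that filter and by median centring (adjusted p = 0.0666 and 1). Syn2 (chr6:115226390-115226449) had signals of 502 against 348 and 514 against 325, a log2 ratio of 0.59 ± 0.11 (1.51-fold; limma adjusted p = 0.00601), a call lost with the mean of its probes and by median centring (adjusted p = 0.0694 and 0.598). In both synapsins the Gata6cKO signals stood above the control signals on both arrays without overlap.

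Syt1, the calcium sensor of fast transmitter release, fell (chr10:107935310-107935369). Its signals were 2447 in Gata6cKO against 5358 in control on the male array and 3219 against 5676 on the female array. All control signals were above all Gata6cKO signals, at a log2 ratio of -0.97 ± 0.12 (1.96-fold lower; limma adjusted p = 0.000263). Snap91, the neuronal clathrin adaptor AP180 that recovers vesicle membrane (chr9:86660081-86660140), fell as well. It had signals of 343 against 578 and 298 against 583. The groups did not overlap, and the log2 ratio was -0.86 ± 0.11 (1.81-fold lower; limma adjusted p = 0.000505). Both rest on 1 probe each, as do all members that rose except Syn2 and Nrxn3.

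The other 11 tested vesicle members did not pass. Syp, synaptophysin, had a log2 ratio of 0.11 in the male and -0.02 in the female pair. Vamp2, the synaptobrevin of most synapses, had 0.14 and -0.08, and Rab3a, the GTPase of vesicle docking, had 0.09 on each array. Syngr3, a synaptogyrin, had 0.08 and 0.01, Vamp1, another synaptobrevin, 0.03 and -0.14, and Rab3b, a relative of Rab3a, -0.13 and -0.23. Sv2a, a vesicle glycoprotein, had 0.41 and -0.09. The moderated SE of these means was 0.11, or 0.13 for Sv2a, and a p that misses the threshold does not show that the levels were equal. Over these 11 members the mean log2 ratios ran from -0.21 for Syngr1, a vesicle protein related to synaptophysin, to 0.41 for Syt11, a synaptotagmin that does not bind calcium. Syt11 had signals of 2675 against 1821 and 2438 against 2037, without overlap, at 0.55 in the male and 0.26 in the female pair (limma adjusted p = 0.0766), and it passed without background correction and with repeat probes left out (adjusted p = 0.0491 and 0.0438). Sv2c, a vesicle glycoprotein, had 0.33 ± 0.11 (limma adjusted p = 0.145). It passed with Agilent's processed signals, the deposited series values, an intensity trend in the prior, the mean of its probes and a normexp offset of 16 (adjusted p = 0.0137, 0.004, 0.0258, 0.00312 and 0.0487). The mean of its probes includes a probe that was kept through its Gata6cKO signals alone.

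**Figure D2:**
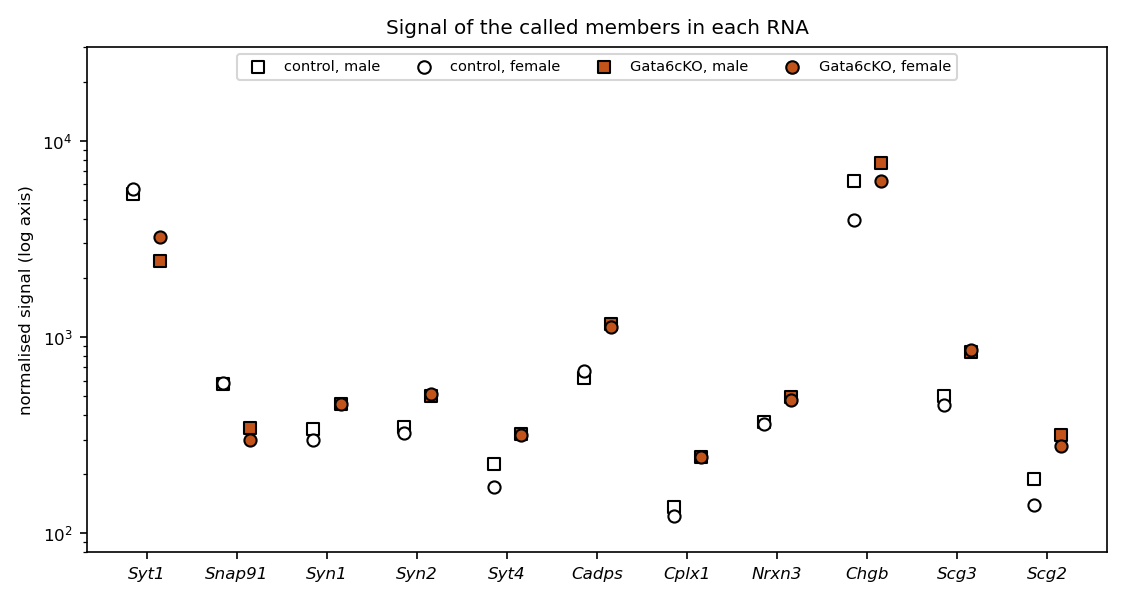
Normalised signal (log axis) of the 11 members that passed, in each of the 4 RNAs; white symbols are control, coloured ones Gata6cKO, squares male and circles female, and signals of different genes come from different probes and are not to be compared with each other. The coloured points lie below the white ones for Syt1 (2447 and 3219 against 5358 and 5676) and Snap91, above them for Cplx1, Cadps, Scg2, Scg3, Syt4, Syn1, Syn2 and Nrxn3, and overlap for Chgb.

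In the adhesion and postsynapse group 1 of 6 members rose and 5 did not pass, with a median of 0.11 (0.08 in the male and 0.17 in the female pair). Nrxn3, neurexin 3 (chr12:90089234-90089293), had signals of 497 against 371 and 478 against 359. Both arrays gave the same ratio within 0.01, and the mean of 0.42 ± 0.11 (1.34-fold) lay just past the threshold (limma adjusted p = 0.0497). The call was lost with separate channels, without the filter for dim probes and by median centring (adjusted p = 0.0684, 0.0866 and 1). Nlgn1, a neuroligin of excitatory synapses, had a log2 ratio of 0.35 in the male and 0.20 in the female pair, and Nlgn2, that of inhibitory synapses, had 0.09 and 0.02. Nrxn2 had 0.05 and 0.30, and the postsynaptic scaffold Dlg4, known as PSD-95, had -0.05 and 0.14. Nlgn3 had 0.06 and -0.06 at a probe that holds repeat sequence. Its other kept probes gave means of -0.21 and -0.11 and did not pass.

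Of the members, 8 had more than 1 probe bright enough to test, and the probes of a gene did not always give the same value. In a fit over all 26200 kept probes, 14 of the 48 kept member probes were higher (2.23% of all kept probes) and 2 lower (2.43% of all). For a gene with several probes the values above are those of the probe with the strongest signal. The only called Sv2c probe was kept through its Gata6cKO signals alone, so its place among the 14 higher member probes follows in part from the filter. Cplx2, Nlgn3 and Pclo had probes of opposite sign, in Nlgn3 only through a value next to 0, and none of the 3 was called as a gene.

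Rab3c, a vesicle GTPase, showed the widest gap between probes of 1 gene. At the probe at transcript position 8381 the signals were 513 against 219 in the male pair and 503 against 185 in the female pair. Gata6cKO was 2.53-fold higher there, at a log2 ratio of 1.34 ± 0.11 (limma adjusted p over all probes = 2.52e-06). The probes at positions 2305 and 2311, which overlap, gave 0.12 ± 0.12 and 0.13 ± 0.11 and did not pass, and the latter stood for the gene above. With probes that hold repeat sequence left out, a setting chosen after the data were seen, Rab3c passed as a gene (adjusted p = 2.13e-07), as it did with the mean of its probes (0.53, adjusted p = 0.0159). With repeat probes left out the number of vesicle genes higher was 5, with Rab3c and Syt11 added. The Syt11 probe holds no repeat and its ratio was the same in both settings. Over all genes this setting called 522 higher and 590 lower of 19415 tested, beside 436 and 465 of 19801 in the main setting.

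The letters of these probes differ in kind. A probe was counted as repeat sequence where a 16-base stretch of it stood in the promoter windows of 10 or more genes of the RefSeq table, on either strand, or where it held a tandem run of at least 18 bases of a unit of up to 6 bases, and 694 of all 39429 probes (1.76%) and 7 of the 62 member probes (11.3%) met this rule. They were 3 of the 4 kept Cplx2 probes, both bright Rab3c probes, the Snap25 probe and 1 Nlgn3 probe, and they stood for these genes in the gene-level values. To show what the repeat and the other probes look like, 30 of their 60 bases are given 5′ to 3′ from the scanner files, first 1 repeat probe each of Snap25 and Rab3c, then the Rab3c probe at position 8381.
Snap25 repeat probe: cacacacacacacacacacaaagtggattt
Rab3c repeat probe: atgttctacagagtgagttctaggatagca
Rab3c probe without repeat: ctgttaggtatttagtttgtgtgtgaattc
The Snap25 stretch opens with a CA run of 20 bases, and its most frequent 16-base stretch stood in the promoter windows of 138 genes. For the Rab3c repeat probe that number was 15. What else these probes bind was not tested, and no other Snap25 probe was on the array, so its value rests on a repeat probe alone.

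Cplx2, complexin 2, had log2 ratios of -0.05, 0.05 and 0.03 at its repeat probes and -0.18 ± 0.13 at the other, where the male array gave 0.09 and the female array -0.45. The array annotation places the repeat probe with 0.05 on chr19 and the other Cplx2 probes on chr13. It ties the repeat probe with -0.05, which stood for the gene, to transcripts of Emp2 and Rab3c as well as Cplx2. Whether these repeat probes read Cplx2 alone was not tested. Nrxn3 was higher at 3 of 4 kept probes, with 0.72, 0.45 and 0.42, and had 0.15 at the last of them. Pclo, piccolo, was higher at the probe at position 16786 (0.55 ± 0.11; limma adjusted p over all probes = 0.00774) and had -0.09 at position 11027, the probe that stood for the gene. The file places both in the same transcript, and which exons they mark was not settled here. Sv2c was not well above background in control at the probe at position 4136, where the Gata6cKO signals were 216 and 188 and the change was at least 1.87-fold, taken against the lowest signal of any probe well above background on the same array and channel. Syn2 was higher at 1 of its probes (0.59) and had 0.15 at the other.

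**Figure D3:**
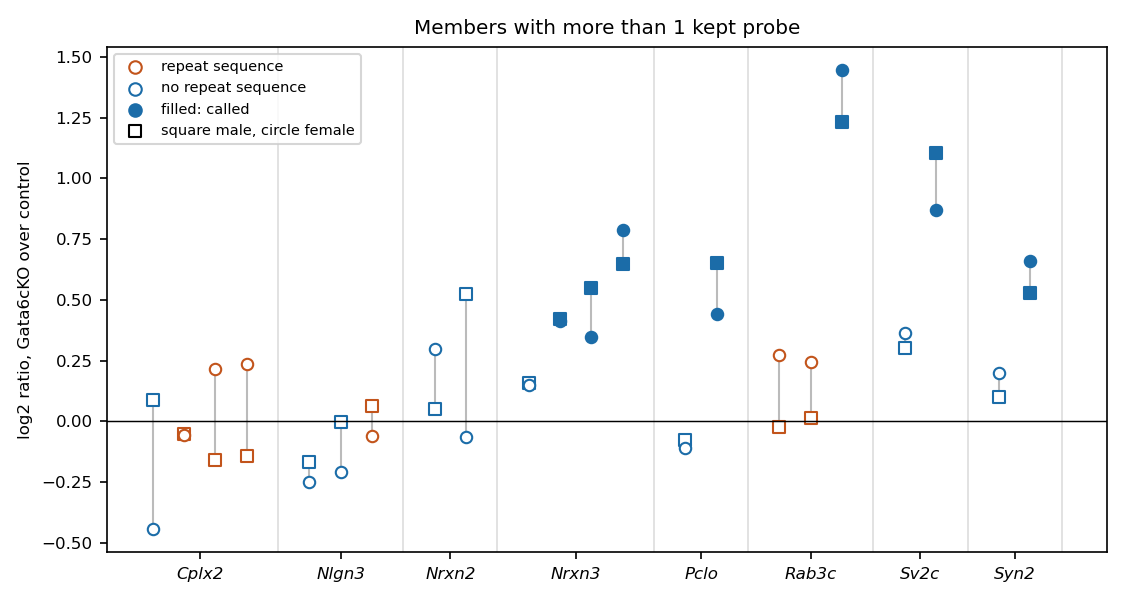
Log2 ratio of Gata6cKO over control at each kept probe of the 8 members with several kept probes; squares are the male array, circles the female array, filled symbols passed in the fit over all probes, and orange marks repeat sequence. Repeat probes of Cplx2, Nlgn3 and Rab3c lie between -0.16 and 0.27 on both arrays, while the remaining Rab3c probe lies at 1.23 and 1.45.

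The promoter windows of the members were searched for short motifs, in the RefSeq table of build GRCm38.p6, which holds 30 of the 37 members with 250 bases before and 50 after each start site. The cAMP response element TGACGTCA, a site of CREB family factors, stood in 3 of 30 members (10%), Scg2, Chgb and Syn1, and in 2.03% of 27025 genes. The left arm of the REST element, TTCAGCACC, a site of the repressor of neuronal genes in other tissues, stood in 4 of 30 (13.3%), Nlgn1, Scg2, Syn1 and Unc13a, and in 0.433% of all, and the right arm GGACAGCGC in 1 (Unc13a) and in 0.477% of all. Both strands were searched for exact matches and these motifs do not overlap one another. A gene was counted where any of its windows held the motif. The 30 members had 41 windows. Windows per gene over all genes were not compared with this, so the shares may rest on unequal lengths searched. The 3 windows with the cAMP element are shown upstream of the start site, 5′ to 3′ on the gene's strand, with the cAMP element and the REST arm in capitals.
Scg2, chr1:79440027-79440276, minus strand: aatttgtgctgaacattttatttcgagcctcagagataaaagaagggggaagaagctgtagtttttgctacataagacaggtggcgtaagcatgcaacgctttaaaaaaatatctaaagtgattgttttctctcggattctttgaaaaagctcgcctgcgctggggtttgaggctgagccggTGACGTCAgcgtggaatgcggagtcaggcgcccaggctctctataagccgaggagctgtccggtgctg
Chgb, chr2:132781392-132781641, plus strand: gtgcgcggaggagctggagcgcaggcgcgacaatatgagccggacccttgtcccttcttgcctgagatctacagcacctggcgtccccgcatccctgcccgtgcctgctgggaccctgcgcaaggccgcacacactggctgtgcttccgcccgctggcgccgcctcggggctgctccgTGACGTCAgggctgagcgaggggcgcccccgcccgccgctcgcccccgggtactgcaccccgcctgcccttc
Syn1, chrX:20920919-20921168, minus strand: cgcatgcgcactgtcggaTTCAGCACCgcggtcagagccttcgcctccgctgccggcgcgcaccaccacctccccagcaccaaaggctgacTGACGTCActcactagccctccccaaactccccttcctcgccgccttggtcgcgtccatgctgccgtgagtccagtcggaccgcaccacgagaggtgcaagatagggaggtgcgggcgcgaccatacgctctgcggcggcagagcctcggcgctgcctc
Counted from the start site, the cAMP element began at -68 in Scg2, -72 in Chgb and -159 in Syn1. In Syn1 the REST arm began at -232. In Scg2 the REST arm lay on the other strand across the start site and is not in the stretch shown. The GC box GGGGCGGGG stood in 11 of 30 members (36.7%) and 12.9% of all genes, among them Syp, Rab3a, Rab3b, Sv2a, Syngr1, Stx1a, Rims1, Dlg4, Nlgn2, Pclo and Unc13a. A match describes these letters only and was not tested as a binding site.

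Other genes of transmitter release, chosen from a list that leaves out the members, also held rises and falls. Of 41 listed 36 were tested, 6 rose, 2 fell and 28 did not pass, with a median of 0.10. Slc18a3, the vesicular acetylcholine transporter, rose by 1.38 ± 0.12 and Slc18a2, the vesicular monoamine transporter of neurons, by 0.70 ± 0.13. Stxbp5l, a tomosyn that holds back SNARE assembly, fell to -0.96 ± 0.11 and Sh3gl2, the endocytic protein endophilin A1, to -0.46 ± 0.11. Of 24 other adhesion and scaffold genes 19 were tested, 4 rose, 1 fell and 14 did not pass, with a median of -0.00200 (0.12 in the male and -0.05 in the female pair). The rises with the smallest p were Lrrtm1, a postsynaptic neurexin ligand (0.72 ± 0.13), and Cadm1, a cell adhesion molecule (0.49 ± 0.11), and the fall was Clstn2, a calsyntenin (-0.49 ± 0.12).

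Of 11 other granule genes 9 were tested, 3 rose and 6 did not pass. Their median of 0.15 came mostly from the female pair (0.32, beside 0.02 in the male pair). Vgf, a neuropeptide precursor of granules, rose by 1.03 ± 0.11 and Scg5, the chaperone of a prohormone convertase, by 0.77 ± 0.12. Trafficking genes listed as ubiquitous counterparts of the members gave 0 rises and 1 fall among 25 tested (limma), with a median of -0.01 and a range from -0.68 to 0.11. How widely each of them is expressed was not tested. The fall was Syt8, a synaptotagmin (-0.68 ± 0.11).

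On the same arrays 12 of 14 neuron markers rose and none fell, with a median of 1.28 (1.03 in the male and 1.32 in the female pair). Their summed processed signal was 11263 and 11567 in the Gata6cKO RNAs and 5918 and 5444 in the control RNAs, and all 14 were above background. The largest ratios were those of the neurofilament genes Nefm (1.83 ± 0.11) and Nefl (1.69 ± 0.11). Of 7 tested glia markers 2 rose, Sox10 and Foxd3, with a median of 0.07 and summed signals of 23137 and 26261 against 25086 and 22332. Of 7 tested chromaffin cell markers, 2 of which are the members Chga and Chgb, 5 rose, led by Dbh (1.30 ± 0.11) and Th (0.62 ± 0.12), enzymes of noradrenaline synthesis, with summed signals of 30819 and 35086 against 23636 and 21751, and Pnmt, the enzyme that makes adrenaline, not above background. Dbh and Th were also counted among the neuron markers, and Slc18a1, which rose too, among the other release genes, so the counts of these lists are not separate. Of 7 skeletal muscle markers 4 rose, led by Myh3 (1.04 ± 0.11) and Myl1 (0.81 ± 0.11), with a median of 0.50 and summed signals of 1945 and 1117 against 1023 and 652. The part of these cell types in the values of the members was not tested. Of 6 endothelial markers 1 fell, Tek (-0.55 ± 0.11), with a median of -0.01 (0.18 in the male and -0.12 in the female pair) and summed signals of 6105 and 6491 against 6304 and 7069. Urothelial and smooth muscle markers fell in 8 of 12 and 4 of 7 genes, with medians of -0.61 and -0.81 and summed signals of 51127 and 46633 against 64601 and 61132, and of 5833 and 4260.5 against 9221 and 5725. They were led by Upk1b (-1.98 ± 0.12) and Upk1a (-1.54 ± 0.11) of the urothelium and by Cnn1 (-1.51 ± 0.11) and Myocd (-1.33 ± 0.12) of smooth muscle.

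**Figure D4:**
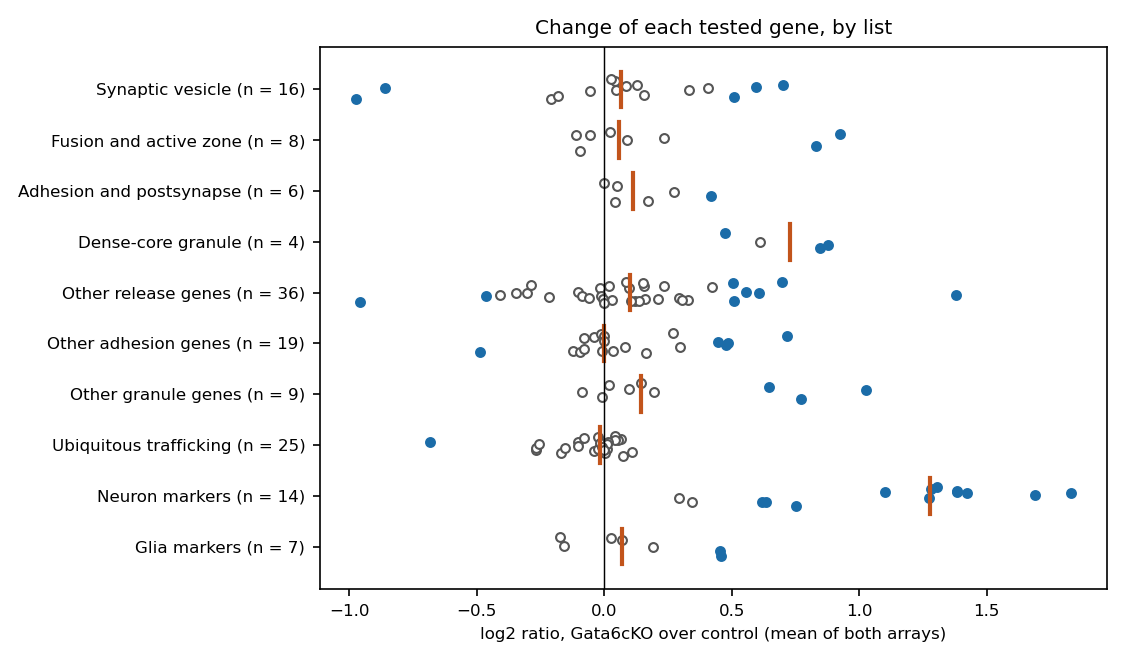
Mean log2 ratio of Gata6cKO over control for each tested gene of the member groups and of comparison lists; each point is 1 gene, filled points passed the limma test and the orange bar is the list median. Granule genes have a median of 0.73 and neuron markers one of 1.28, while the vesicle, fusion and adhesion groups have medians of 0.07, 0.06 and 0.11. In the vesicle, fusion and adhesion groups 18.8%, 25% and 16.7% passed as higher, beside 2.2% of all genes. As lower, 12.5%, 0% and 0% passed, beside 2.35% of all genes. The ubiquitous counterparts cluster around -0.01.

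The number of members that passed moved with the normalisation and the filter. With each array centred on its median in place of loess, 2 members were higher (Cplx1 and Scg2) and 1 lower (Syt1), in a setting that called 90 genes higher and 100 lower over the whole array in place of 436 and 465. With no filter on dim probes 5 members were higher and 2 lower. All 11 called members kept their direction in all 11 alternatives that gave a test and on each array alone.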

How the data were processed

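Two-colour Agilent arrays of 2 pairs of ureter RNAs (E14.5, 150 ng of total RNA each, per the labels' protocols) were analysed. Each deposited scanner file gives an unnormalised mean intensity and a local background per spot and dye. It also gives a processed intensity, background-subtracted and dye-normalised, and, per the file headers, a deposited log10 ratio (red dye over green), which was not used. The submitters' processing notes name Agilent Feature Extraction 10.7.3.1. The headers give mm9 as the build of the probe positions. The authors' deposited series values are a score per probe, read here as a signed fold of Gata6cKO over control, since no value lies between -1 and 1 and its log2 had an r of 0.985 and 0.980 with the processed ratios, across probes. How the 4 spots were summarised for that score was not stated. There were 0 unused per-sample columns.

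Raw intensities were background-corrected (normexp, offset 50), loess-normalised within arrays, and averaged per probe over spots with no outlier mark, in R 4.3.3 with limma 3.58.1. Probes with at least 3 of 4 spots well above background in 1 genotype on both arrays were kept (26200 of 39429). The strongest probe stood for a gene, under RefSeq symbols of GRCm38.p6 (28328 probes matched by accession, 1602 symbols changed). The sign was turned on the dye-swapped array, and lmFit with eBayes gave moderated p-values (1 residual and 11.9 prior degrees of freedom, prior SD 0.162), adjusted by Benjamini-Hochberg over 19801 genes, threshold 0.05. Signals per RNA are loess and Aquantile values. On simulated data of 19801 genes the fit recovered 100% of changes of 1 on the log2 scale in either direction, 60% of rises of 0.5 and 74% of falls of 0.5. The prior, fitted over all genes, carries most of the spread in each test, and the number of arrays limits the precision.

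The alternatives changed the background correction, normalisation, filter, probe rule, prior and pairing, and leaving out repeat probes was added after the data were seen. The members, lists and motifs were chosen with earlier results of these data known. All members are accounted for, and of other lists the 2 genes with the smallest adjusted p in each direction are named. Exon positions of probes were not used.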

Additional observations from a re-analysis of the deposited data

Results flagged for a closer look

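At 8 of the 48 kept member probes every spot of 1 array lay above 0 and every spot of the other below 0, so that the male and the female pair differed in direction. The same held for 7703 of all 26200 kept probes. The difference was not tested, since each sex has 1 array, and sex, dye and replicate cannot be told apart. The log2 ratios on the male and the female array were 0.088 and -0.45 for Cplx2 at its probe without repeat, -0.14 and 0.23 for Cplx2 at position 960, -0.16 and 0.22 for Cplx2 at position 968, 0.26 and -0.21 for Snap25, 0.063 and -0.063 for Nlgn3 at its repeat probe, 0.52 and -0.063 for Nrxn2 at position 5567, -0.024 and 0.27 for Rab3c at position 2305, and 0.41 and -0.094 for Sv2a. None of these probes was called.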

How the results depend on the processing

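Of 9 members higher and 2 lower, Cplx1, Scg2 and Syt1 kept their call in all 11 alternatives with a test, and the counts over all members ran from 2 to 12 higher and from 1 to 2 lower. With median centring the counts were 2 higher and 1 lower over all members, 1 higher for fusion and active zone, 0 for adhesion, 1 for granule and 0 for vesicle genes, with 1 vesicle gene lower. With no filter on dim probes, where 29875 genes were tested and Sv2b, Rims2 and Unc13a were not called, they were 5 higher over all members, 0 for adhesion and 1 for vesicle genes. With separate channels and no replicate block in place of the within-array pair, 7 members were higher, 0 of them adhesion genes, and Chgb and Nrxn3 lost their call (adjusted p = 0.481 and 0.0684). With repeat probes left out, chosen after the data were seen, 5 vesicle genes were higher and 12 members in all. That setting called 522 genes higher and 590 lower of 19415 tested. Syt11 and Chga passed in it at unchanged ratios. Of members not called, 4 passed in at least 1 alternative: Chga, Syt11, Rab3c and Sv2c, among them Sv2c at 0.56 with Agilent's processed signals (adjusted p = 0.0137). Over all genes, 436 higher and 465 lower became 90 and 100 with median centring, 248 and 229 with no filter, 301 and 296 with separate channels, and 672 and 795 with the deposited series values. No called member reversed its direction. The size of the log2 ratio moved, from 0.92 to 1.64 for Cplx1, 0.88 to 1.38 for Scg2 and 0.70 to 0.99 for Syt4. For these genes the main setting gave the low end of the range. Syn2 lost its call as the mean of its probes (0.37, adjusted p = 0.0694). Without 1 array there is no test, and no count of calls was given. With 4 RNAs and signals near background for 14 of 62 member probes, absence of a call for dim members says little.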

Other observations

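Members that were not tested had signals near the floor of the arrays, between 106 and 111 for the dimmest probes well above background. Sv2b had signals of 91.5 and 102 in Gata6cKO and 86.4 and 87.4 in control. Rims2 had 98.2 and 99.99 against 94.1 and 97.9. Unc13a at its brighter probe had 116 and 129 against 124 and 116.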
